A study of Homo sapiens with 16 samples.

Results

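B-precursor leukemia lines with an MLL fusion were compared with mature B cell lines over 8 of the 16 libraries of the series, 4 libraries of RS4-11 and KOPN8 against 4 of RAJI and P493-6. The libraries were chosen by the cell line that the labels give, and by no measured value. The study exposed 8 blood cancer lines to the peptide Y518R, which binds DPY30, or to the peptide 3R, which does not, and sequenced their polyadenylated RNA. RS4-11 is labelled as an MLL-AF4 leukemia and KOPN8 as an MLL-ENL leukemia, against RAJI as Burkitt's lymphoma and P493-6 as a model of that lymphoma. Each line gave 1 library with each peptide, and both peptides were pooled. Every line grew in Advanced RPMI with fetal bovine serum at 2.5%. Neither the dose of the peptides nor the time on them is stated in the labels. Each class holds 2 lines, and each line is a single established culture, so that the fusion, the stage of maturation, the history of Epstein-Barr virus infection and the individual line cannot be told apart.

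B cells mature in steps. Precursors in the bone marrow rearrange their immunoglobulin genes with the recombinase made of RAG1 and RAG2, and place the new heavy chain at the surface with a surrogate light chain made of the products of VPREB1 and IGLL1, the pre-B cell receptor. Mature B cells have lost the surrogate light chain and the recombinase and carry CD20, the product of MS4A1. RS4-11 and KOPN8 are known as B-precursor acute leukemia lines in which a translocation joins the start of MLL (KMT2A) to AF4 (AFF1) or ENL (MLLT1), and such fusions are known to hold HOXA genes and MEIS1 active. RAJI is known as a Burkitt's lymphoma line that carries Epstein-Barr virus, and P493-6 as a B cell line immortalized with that virus that holds a regulatable MYC transgene; the labels do not state whether the transgene was on.

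The promoters of VPREB1 and IGLL1, which encode the surrogate light chain, and of CYBB, the named gene lower in the precursor lines with the lowest p, are shown because these genes are among those farthest apart between the classes. In mice, EBF1 and E proteins are known to act on the surrogate light chain genes, so the windows were searched on both strands for the EBF core CCCNNGGG and the E-box CAGGTG, which do not overlap each other in these windows. Windows run from 250 bases before to 50 bases after the RefSeq start (build GRCh38.p14), and capitals mark the matches. The windows lie at chr22:22244536-22244835 on the plus strand for VPREB1, at chr22:23580241-23580540 on the minus strand for IGLL1 and at chrX:37779809-37780108 on the plus strand for CYBB.
VPREB1: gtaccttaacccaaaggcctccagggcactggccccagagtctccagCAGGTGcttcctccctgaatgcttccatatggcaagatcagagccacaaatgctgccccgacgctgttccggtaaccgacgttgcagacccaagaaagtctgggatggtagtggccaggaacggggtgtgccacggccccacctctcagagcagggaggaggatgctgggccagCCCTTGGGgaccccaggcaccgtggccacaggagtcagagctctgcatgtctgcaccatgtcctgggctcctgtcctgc
IGLL1: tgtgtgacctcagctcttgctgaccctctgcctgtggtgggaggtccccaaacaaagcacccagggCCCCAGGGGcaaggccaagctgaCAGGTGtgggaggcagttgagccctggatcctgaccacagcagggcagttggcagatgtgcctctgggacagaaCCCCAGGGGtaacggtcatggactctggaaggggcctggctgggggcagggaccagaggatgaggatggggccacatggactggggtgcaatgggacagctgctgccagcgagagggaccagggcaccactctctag
CYBB: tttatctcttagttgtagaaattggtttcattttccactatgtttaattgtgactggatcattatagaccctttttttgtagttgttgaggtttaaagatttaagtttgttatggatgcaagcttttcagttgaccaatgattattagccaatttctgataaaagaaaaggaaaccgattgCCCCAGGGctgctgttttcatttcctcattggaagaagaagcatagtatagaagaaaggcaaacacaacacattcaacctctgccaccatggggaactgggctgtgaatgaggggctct
VPREB1 held 1 EBF core 29 bases before its start and 1 E-box. IGLL1 held EBF cores at 2 places, each of them 2 overlapping matches, and 1 E-box. CYBB held 1 EBF core and no E-box, and the windows of RAG1, RAG2 and FCER2 held neither. The EBF core was found in 19.1% of all 35116 windows (27305 gene symbols), and the E-box in 20.6%. Over windows of the 185 genes highest above the mature lines, of which 130 matched a symbol, the shares were 25.4% and 17.5%, and over those of the 108 genes farthest below, of which 71 matched, they were 28.7% and 31.3%. A match is a description of these letters and not of binding.

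Gene counts ran from 19354300 in RAJI 3R to 43003124 in RS4-11 3R, and a count of 0 allows up to 3 counts, or 0.0698 to 0.155 CPM. CPM here are counts scaled to a common library size by TMM, without RNA genes that lack poly(A) tails, and they compare libraries for a gene but not genes of different length. The RAJI 3R library stood apart: 44.7% of its reads fell in no gene, against 19.0% to 26.9% in the other 7 libraries, and its RNA genes without poly(A) tails summed to 1237 CPM, against 270.2 to 486 CPM. Those RNA genes were left out of all other CPM values and of the tests, except where they are said to be kept. The gene counts above include them. Histone genes were kept, and they summed to 361 CPM in RAJI 3R, against 81.4 to 235 CPM in the other 7 libraries. List counts that changed the most without the RAJI 3R library are given without it as well.

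The first question was which genes separate the classes by more than lines of 1 class differ. With the line as the replicate and 2 lines a class, edgeR's quasi-likelihood test passed 0 of 13645 genes at an adjusted p under 0.05. At an unadjusted p under 0.05, 765 genes (5.61%) were higher in the precursor lines and 658 (4.82%) were lower. DESeq2 on the same summed counts passed 617 genes higher (4.52%) and 487 lower (3.57%), so that the count of calls depends on the tool. Taking the 8 libraries as separate samples, which share their source in pairs, edgeR passed 1052 genes higher (7.95%) and 1019 lower (7.7%), and limma-voom with the line as a random block passed 12 (0.0907%) and 5 (0.0378%). An exact permutation test of 2 lines against 2 cannot go below a p of 0.333. The classes are therefore described by values, and every gene named as higher or lower here did not pass the edgeR test. All 4 libraries of one class lay outside the range of the other class for 2389 genes higher (17.5%) and 2094 lower (15.3%), or 2618 and 2338 without RAJI 3R. A stricter set held genes at 10 CPM or more in each library of the higher class and at least 4-fold above each library of the other class: 185 were higher (1.36%) and 108 lower (0.791%), or 195 and 112 without RAJI 3R. Both size rules were chosen after the values were seen. Genes given in addition to those the naming rule selected were likewise chosen after their values were seen.

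The spread between lines of 1 class was large. Over 10677 genes that reached 10 CPM, the median size of the log2 difference was 0.61 to 0.70 for the 4 pairs of a precursor and a mature line, 0.45 between RS4-11 and KOPN8, and 0.62 between RAJI and P493-6. The 2 peptides differed within a line by a median of 0.10 to 0.18. RAJI and P493-6 were thus about as far apart as RAJI was from either leukemia line. In bulk RNA, fewer cells with a transcript and less of it per cell cannot be told apart.

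**Figure D1:**
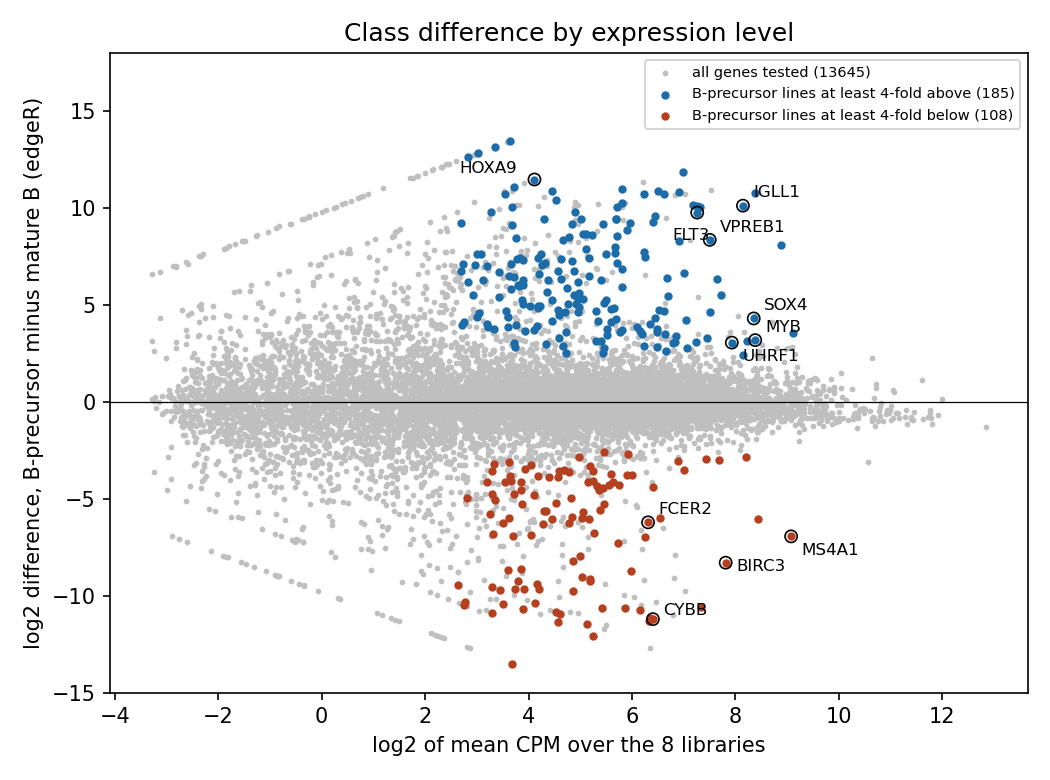
Log2 difference of the B-precursor lines minus the mature B lines from edgeR for 13645 genes, against the log2 of their mean CPM over the 8 libraries; blue and red points are genes whose 4 libraries of one class lie at least 4-fold from the other class, and circles mark labelled genes. The 185 blue genes include IGLL1, VPREB1, FLT3 and HOXA9 and the 108 red ones MS4A1, BIRC3, FCER2 and CYBB; points on the slanted outer lines have counts of 0 or nearly 0 in one class, where the fitted value depends on the prior count.

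The markers of B cell stage split the classes at the level of the surrogate light chain, the recombinase and CD20. The labels name the fusion or the disease and no stage. IGLL1, which encodes the lambda-like part of the surrogate light chain, stood at 515 to 563 CPM in RS4-11 and 533 to 651 CPM in KOPN8, against 0.313 to 0.838 CPM in RAJI and 0.216 to 0.654 CPM in P493-6. The lowest precursor library was 615-fold above the highest mature one, and the log2 difference of the precursor minus the mature lines was 10.12 ± 0.41 (SE), with 2 lines a class and an adjusted p of 0.093 in edgeR. SE here and below is approximate: the size of the log2 difference divided by the square root of the F statistic of that test. VPREB1, which encodes the other part of that chain, stood at 239 to 249.5 CPM in RS4-11 and 438 to 519.9 CPM in KOPN8, against 0.313 to 0.419 CPM in RAJI and 1.34 to 2.34 CPM in P493-6. The log2 difference of VPREB1 was 8.36 ± 1.16 (SE), and P493-6 kept more of it than RAJI. RAG2, a recombinase subunit, stood at 120.3 to 122 CPM in RS4-11 and 101 to 104 CPM in KOPN8, against 0.0522 to 0.209 CPM in RAJI and 0.0345 to 0.072 CPM in P493-6. RAG1, its partner, was measured at 190.4 to 199.6 CPM in RS4-11 and 8.75 to 11.6 CPM in KOPN8, against 0.0522 to 0.105 CPM in RAJI and 0.0345 to 0.18 CPM in P493-6. RAG1 was thus high in RS4-11, an order of magnitude lower in KOPN8 and near 0 in both mature lines. MS4A1 (CD20) was at 0.255 to 0.823 CPM in RS4-11 and 12.1 to 20.9 CPM in KOPN8, against 1018 to 1365 CPM in RAJI and 940.3 to 959.6 CPM in P493-6. The log2 difference of MS4A1 was -6.94 ± 1.97 (SE), and its low level in KOPN8 was well above that in RS4-11.

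Of the other stage markers, some split the classes and some did not. CD34, a marker of early progenitors, was at 0.0697 to 0.335 CPM in RS4-11 and 0 CPM in KOPN8, against 0 CPM in RAJI and 0 CPM in P493-6, which is at or under the level that a count of 0 allows in most libraries and did not pass the count filter. DNTT, the terminal transferase of precursors, stood at 4.27 to 4.34 CPM in RS4-11 and 0.0413 to 0.131 CPM in KOPN8, against 0.469 to 0.471 CPM in RAJI and 0.324 to 0.344 CPM in P493-6, so that it was highest in RS4-11 and lowest in KOPN8. SOX4, a transcription factor of B precursors, was measured at 772 CPM in RS4-11 and 468 to 478 CPM in KOPN8, against 15.3 to 16.7 CPM in RAJI and 46 to 48.1 CPM in P493-6, with a log2 difference of 4.30 ± 0.72 (SE). FCER2 (CD23), a surface marker of mature B cells, was at 0.518 to 1.25 CPM in RS4-11 and 3.02 to 3.63 CPM in KOPN8, against 68.3 to 148 CPM in RAJI and 188 to 222 CPM in P493-6, with a log2 difference of -6.21 ± 0.93 (SE). CR2, the complement receptor that the virus uses for entry, was at 0.0232 to 0.0914 CPM in RS4-11 and 0.0413 to 0.262 CPM in KOPN8, against 349.5 to 540 CPM in RAJI and 0.18 to 0.276 CPM in P493-6. CR2 was therefore a marker of RAJI and not of the mature class. TNFRSF13B (TACI) stood at 0.557 to 0.762 CPM in RS4-11 and 181 to 207 CPM in KOPN8, against 39.9 to 41.3 CPM in RAJI and 54.2 to 65 CPM in P493-6, so that it was highest in a leukemia line. CD22, listed here as a mature B marker, was at 144 to 154 CPM in RS4-11 and 397 to 450 CPM in KOPN8. It was at 504 to 617 CPM in RAJI and 226.5 to 247 CPM in P493-6, so that the classes overlapped. The B lineage genes CD79A, CD79B and PAX5 were at 105.7 CPM or more in all 8 libraries.

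**Figure D2:**
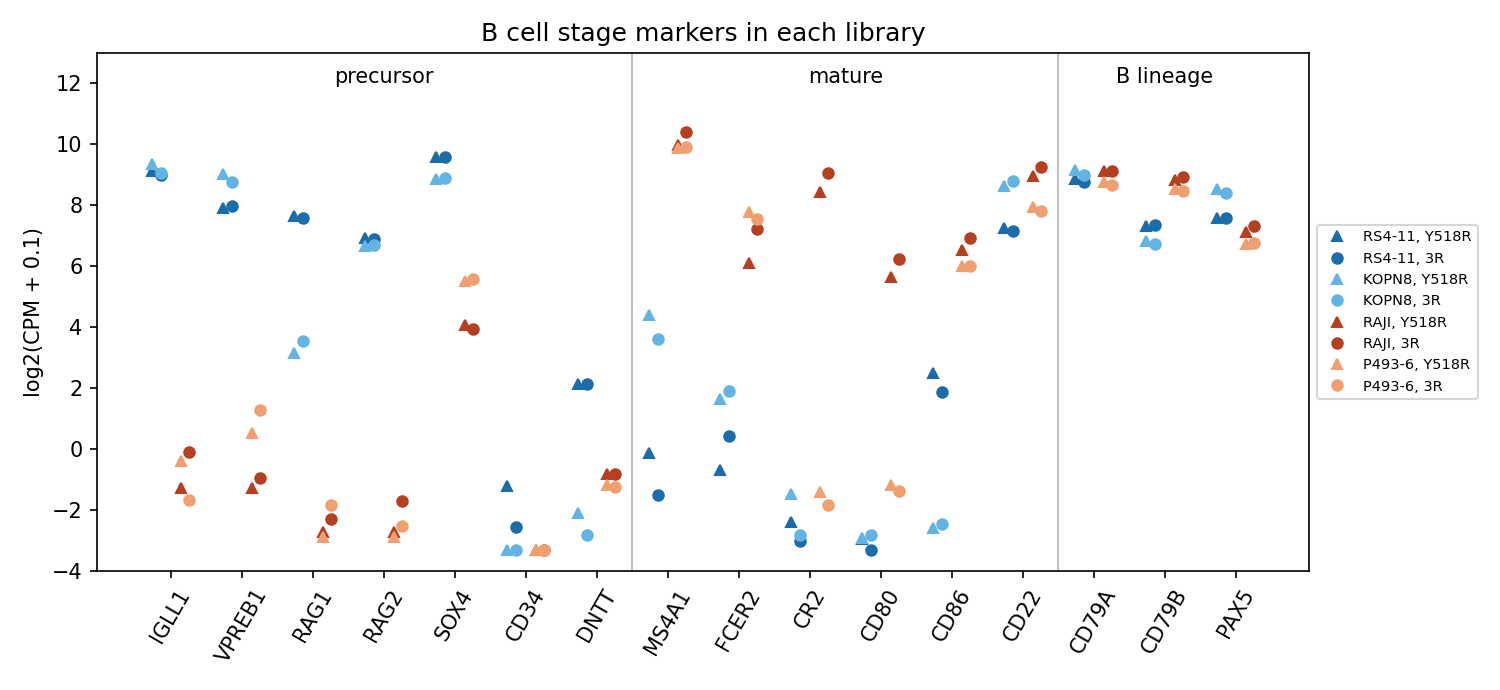
Level of B cell stage markers in each library as log2(CPM + 0.1), with the 4 libraries of RS4-11 and KOPN8 (blue) left of the 4 libraries of RAJI and P493-6 (red and orange) for each gene; triangles are Y518R libraries and circles 3R libraries. IGLL1, VPREB1, RAG1, RAG2 and SOX4 are higher in all blue libraries and MS4A1, FCER2 and CD86 in all red and orange ones. CR2 and CD80 are high in RAJI alone, and the lineage genes at the right are high in all libraries. CD22 and DNTT overlap between the classes.

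Under the naming rule, the 10 genes higher in the precursor lines with the lowest p were IGLL1, NRIP1, IGFBP7, FLT3, AMOTL1, NOG, SHANK1, SYT1, RAG2 and AASS. NRIP1, a corepressor of nuclear receptors, was measured at 268 to 269.7 CPM in RS4-11 and 298 to 325 CPM in KOPN8, against 0.104 to 0.471 CPM in RAJI and 0.172 to 0.252 CPM in P493-6. IGFBP7, a secreted protein that binds insulin-like growth factors, was at 144 to 150.5 CPM in RS4-11 and 153 to 154 CPM in KOPN8, against 0.0522 to 0.157 CPM in RAJI and 0.0689 to 0.072 CPM in P493-6, and its 4 precursor libraries lay within 144 to 154 CPM. NOG, a secreted antagonist of bone morphogenetic proteins, was at 132 to 136 CPM in RS4-11 and 229 to 230.5 CPM in KOPN8, against 0 to 0.209 CPM in RAJI and 0.0345 to 0.144 CPM in P493-6. NRIP1, IGFBP7 and NOG were at or under 0.471 CPM in every mature library. AMOTL1, SHANK1, SYT1 and AASS ran from 42.7 to 155 CPM in the precursor libraries and were at or under 0.209 CPM in the mature ones. Beyond the rule, the highest levels among the 185 genes were those of PAN3, UBASH3B, MYB, CTGF and SOX4. UBASH3B, a phosphatase that dampens receptor signalling, stood at 631 to 656 CPM in RS4-11 and 1225 to 1261 CPM in KOPN8, against 5.58 to 6.97 CPM in RAJI and 0.324 to 0.861 CPM in P493-6. CTGF, a secreted matrix protein, was measured at 237 to 239.9 CPM in RS4-11 and 1076 to 1089 CPM in KOPN8, against 0.209 to 0.524 CPM in RAJI and 0.379 to 0.396 CPM in P493-6. Both were near 0 in P493-6 and at most 6.97 CPM in RAJI.

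Under the same rule, the genes lower in the precursor lines with the lowest p that are reported here were CYBB, ALOX5, TBC1D12, SYNGR3, FAM102A, ST14, POU2F2, RASSF6 and ZNF532. CYBB, the catalytic subunit of the phagocyte NADPH oxidase, which B cells also express, was at 0.0464 to 0.0914 CPM in RS4-11 and 0.0656 to 0.0825 CPM in KOPN8, against 119 to 128 CPM in RAJI and 211 to 218 CPM in P493-6, with a log2 difference of -11.21 ± 0.59 (SE). ALOX5, the lipoxygenase that starts leukotriene synthesis, was at 0.0697 to 0.183 CPM in RS4-11 and 0 to 0.0825 CPM in KOPN8, against 146 to 162 CPM in RAJI and 122 to 138 CPM in P493-6. TBC1D12, SYNGR3, RASSF6 and ZNF532 were at 2 or fewer counts in each precursor library, so no fold is given, against 24.3 to 136 CPM in the mature lines. POU2F2 (OCT2), a transcription factor of mature B cells, stood at 5.59 to 6.95 CPM in RS4-11 and 8.33 to 10.3 CPM in KOPN8, against 166 to 175 CPM in RAJI and 152 to 154 CPM in P493-6, with a log2 difference of -4.40 ± 0.38 (SE). FAM102A was measured at 7.55 to 10.3 CPM in RS4-11 and 7.88 to 9.31 CPM in KOPN8, against 109 to 111 CPM in RAJI and 125 to 134 CPM in P493-6. POU2F2 and FAM102A were lower but measurable in the precursor lines, while most of the others were close to 0.

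The other 4 lines of the series were not used to choose these genes and give their levels outside the comparison. Of the 185 genes higher in the precursor lines, 42 (22.7%) also reached the lowest precursor level in every library of MOLM13 and THP1, the MLL-AF9 leukemia lines, 33 (17.8%) did so in JURKAT and 23 (12.4%) in K562. In 25 of them (13.5%) the lowest precursor library was more than 4-fold above all 8 libraries of those other lines. FLT3, NRIP1, IGFBP7 and AMOTL1 were expressed in MOLM13 and THP1 as well. AMOTL1 was also at 94.1 to 95.8 CPM in K562 and JURKAT, and NRIP1 at 82.3 to 83.8 CPM in K562. FLT3 and IGFBP7 were at or under 0.447 CPM in K562 and JURKAT, and NRIP1 was at 0.0745 to 0.221 CPM in JURKAT. Of the 108 genes lower in the precursor lines, 8 (7.41%) reached the lowest mature level in every MOLM13 and THP1 library. In JURKAT 24 (22.2%) did so, and in K562 20 (18.5%). In 23 (21.3%) of the 108 that level was more than 4-fold above all 8 libraries of the other lines.

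**Figure D3:**
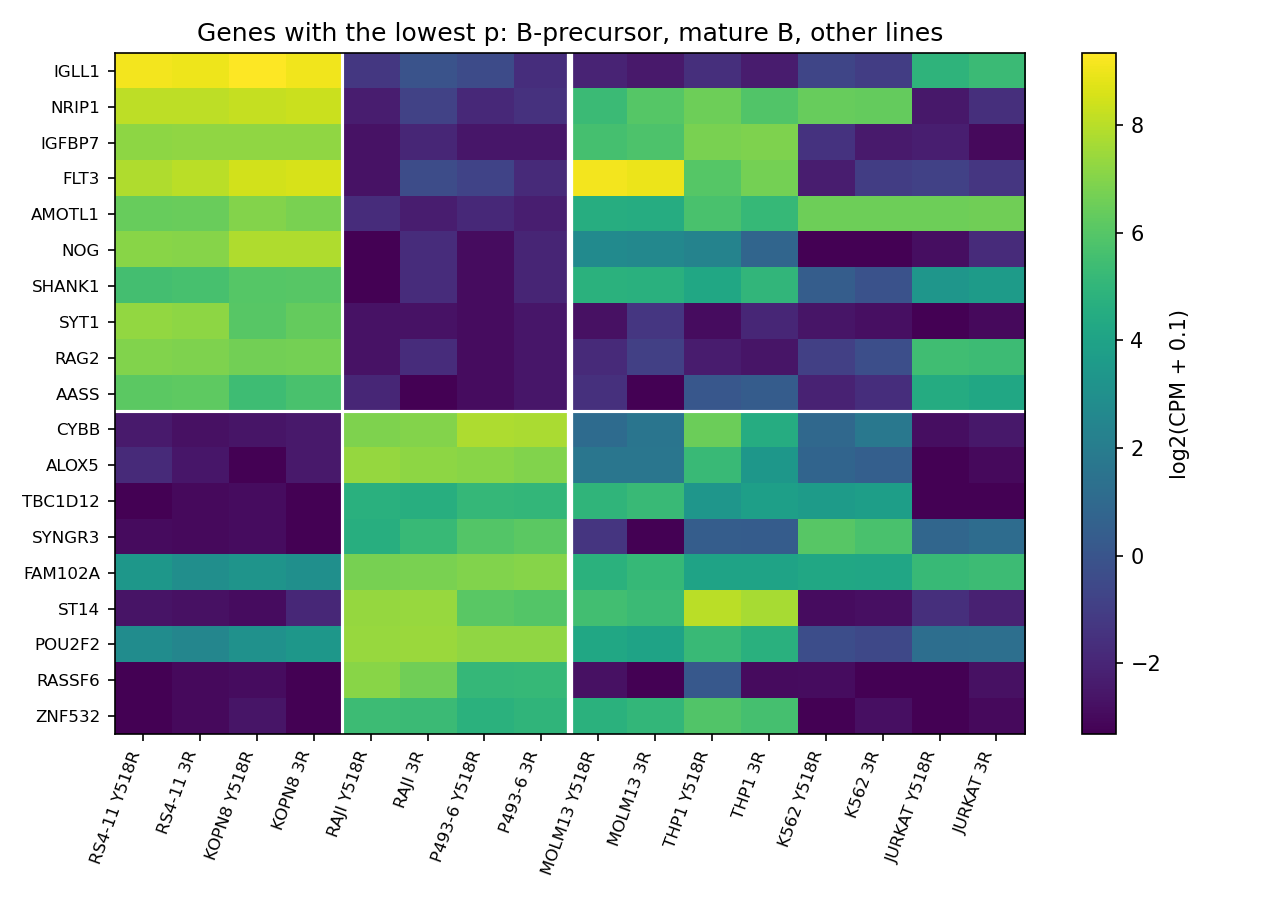
Level of the named genes with the lowest p as log2(CPM + 0.1) in all 16 libraries, from left the B-precursor lines, the mature B lines and the other 4 lines; the upper 10 genes are higher and the lower 9 lower in the precursor lines. FLT3 is also bright in MOLM13, at 511 to 554 CPM, and IGLL1 and RAG2 are visible in JURKAT, while RASSF6 is dark outside RAJI and P493-6.

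Pre-B cell receptor and recombination genes were 4 of 6 higher in all precursor libraries, against 17.5% of all genes, and their median log2 difference was 9.21, against 0.01 over all genes. The 4 were VPREB1, IGLL1, RAG1 and RAG2. VPREB3, a chaperone related to VPREB1, was at 7.17 to 8.35 CPM in RS4-11 and 18.2 to 24.4 CPM in KOPN8, against 55.5 to 75.5 CPM in RAJI and 19.9 to 20.8 CPM in P493-6, so that RS4-11 lay below both mature lines and KOPN8 overlapped with P493-6.

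Progenitor surface and signalling genes were 8 of 18 tested members higher without overlap and none lower, against 17.5% and 15.3% of all genes. FLT3, the receptor of a growth factor of early progenitors, was at 227 to 259 CPM in RS4-11 and 361 to 378 CPM in KOPN8, against 0.0522 to 0.681 CPM in RAJI and 0.18 to 0.482 CPM in P493-6, with a log2 difference of 9.77 ± 0.47 (SE). CSPG4 (NG2), a proteoglycan known as a surface marker of MLL-rearranged leukemia, stood at 135 to 152 CPM in RS4-11 and 154 to 159 CPM in KOPN8, against 0.0522 to 0.209 CPM in RAJI and 0.861 to 1.66 CPM in P493-6, with a log2 difference of 7.74 ± 1.34 (SE). PROM1 (CD133) was measured at 443 to 461 CPM in RS4-11 and 0.328 to 0.702 CPM in KOPN8, against 0.157 to 0.262 CPM in RAJI and 0.0689 to 0.072 CPM in P493-6. PROM1 was abundant in RS4-11 and under 1 CPM in the other 6 libraries. MME (CD10), the marker of common B-precursor leukemia, was at 0.0914 to 0.186 CPM in RS4-11 and 458 to 480 CPM in KOPN8, against 131 to 170 CPM in RAJI and 9.07 to 11.5 CPM in P493-6. MME was under 0.2 CPM in RS4-11 and high in KOPN8 and RAJI, so that it did not follow class. IL7R, the receptor through which interleukin 7 supports precursors, was at 130.1 to 144 CPM in RS4-11 and 76.5 to 77.5 CPM in KOPN8, against 11.4 to 14 CPM in RAJI and 53.4 to 55 CPM in P493-6. The median of this list was 2.06 and moved to 6.20 without P493-6, so that its size rests on which mature line is used.

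Progenitor transcription factors were 15 of 19 tested members higher without overlap and none lower. Over all genes 17.5% were higher and 15.3% lower. MYB, a factor of immature blood cells, stood at 505 to 535 CPM in RS4-11 and 679.9 to 685 CPM in KOPN8, against 55.1 to 62.5 CPM in RAJI and 68.2 to 78.8 CPM in P493-6, with a log2 difference of 3.19 ± 0.32 (SE). RUNX2, a runt domain factor, was measured at 43.5 to 44.3 CPM in RS4-11 and 287 to 322 CPM in KOPN8, against 0.0522 to 0.209 CPM in RAJI and 0.288 to 0.31 CPM in P493-6. ERG, an ETS factor of stem cells, was at 212 to 222 CPM in RS4-11 and 5.11 to 6.6 CPM in KOPN8, against 0.0522 to 0.105 CPM in RAJI and 0.0689 to 0.18 CPM in P493-6, so that it was high in RS4-11 and modest in KOPN8. LEF1, MEF2C, RUNX1, LMO2, ZEB2 and FLI1 were higher in all precursor libraries as well. MEF2C, a MADS box factor, was at 948 to 991 CPM in RS4-11 and 806 to 887 CPM in KOPN8, against 164 to 219 CPM in RAJI and 65.8 to 67.7 CPM in P493-6. The median log2 difference of this list was 2.60, against 0.01 over all genes, and it was 1.43 without RS4-11.

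Known targets of MLL fusions were 31 of 41 tested members higher without overlap and 1, IGF2BP3, lower, against 17.5% and 15.3% of all genes. This list shares FLT3, PROM1, MYB, MEF2C, RUNX1, RUNX2, LMO2 and ZEB2 with the progenitor lists. HOXA9, the homeobox gene most closely tied to these fusions, stood at 19.5 to 20.5 CPM in RS4-11 and 48.9 to 49.6 CPM in KOPN8, against 0 CPM in RAJI and 0 to 0.036 CPM in P493-6. HOXA10 was measured at 85.6 to 93 CPM in RS4-11 and 375 to 408 CPM in KOPN8, against 0.0522 to 0.262 CPM in RAJI and 0.036 to 0.172 CPM in P493-6, with a log2 difference of 10.84 ± 1.21 (SE). KOPN8 was above RS4-11 for both. HOXA7 had 13.6 to 25.5 CPM in the precursor lines and no count in any mature library, which makes it at least 155.5-fold higher over the class means with each mature library set to 3 counts. MEIS1, the DNA-binding partner of HOXA9, was at 112 to 119 CPM in RS4-11 and 179.5 to 192 CPM in KOPN8, against 0.678 to 2.72 CPM in RAJI and 0 CPM in P493-6. HOXA3, HOXA4, HOXA5 and HOXA6 were also higher in every precursor library, each of them more so in KOPN8 than in RS4-11. HOXA11 was at 0.0914 to 0.325 CPM in RS4-11 and 114 to 121 CPM in KOPN8, against 0 to 0.105 CPM in RAJI and 0.036 to 0.0689 CPM in P493-6, so that this end of the cluster was high in KOPN8 alone.

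Outside the HOXA cluster the fusion targets were not uniform. CDK6, the cell cycle kinase, stood at 1339 to 1447 CPM in RS4-11 and 499.6 to 557 CPM in KOPN8, against 226 to 240 CPM in RAJI and 109 CPM in P493-6, with a log2 difference of 2.48 ± 0.71 (SE). BCL2, which blocks apoptosis, was measured at 309 to 314 CPM in RS4-11 and 144 to 162 CPM in KOPN8, against 64.4 to 150.2 CPM in RAJI and 10.8 to 12.3 CPM in P493-6, so that RAJI 3R reached the level of KOPN8. IGF2BP3, an RNA-binding protein, was at 90.2 to 94.3 CPM in RS4-11 and 0.165 to 0.262 CPM in KOPN8, against 95.3 to 110.3 CPM in RAJI and 159 to 161 CPM in P493-6. IGF2BP3 was near 0 in KOPN8 and similar in RS4-11 and RAJI. The median log2 difference of the 41 members was 2.80, with 2.83 to 4.01 for the 4 pairs of lines and 4.28 without RAJI, and 21 members had an unadjusted p under 0.05, against 5.61% of all genes. Among the genes of the fusions themselves, the files list MLL at 148 to 227 CPM in the precursor lines and 158 to 222 CPM in the mature lines, which overlap; reads of the fusion and the intact allele cannot be told apart in a gene count. AFF1, the partner in RS4-11, was at 263 to 268 CPM in RS4-11 and 557 to 569.9 CPM in KOPN8, against 15.1 to 19.2 CPM in RAJI and 147 to 153 CPM in P493-6. MLLT3 (AF9), the partner in the other MLL lines, stood at 0.0609 to 0.116 CPM in RS4-11 and 0.131 to 0.206 CPM in KOPN8, against 26.3 to 33 CPM in RAJI and 108 to 123 CPM in P493-6, and it was lower in all precursor libraries.

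**Figure D4:**
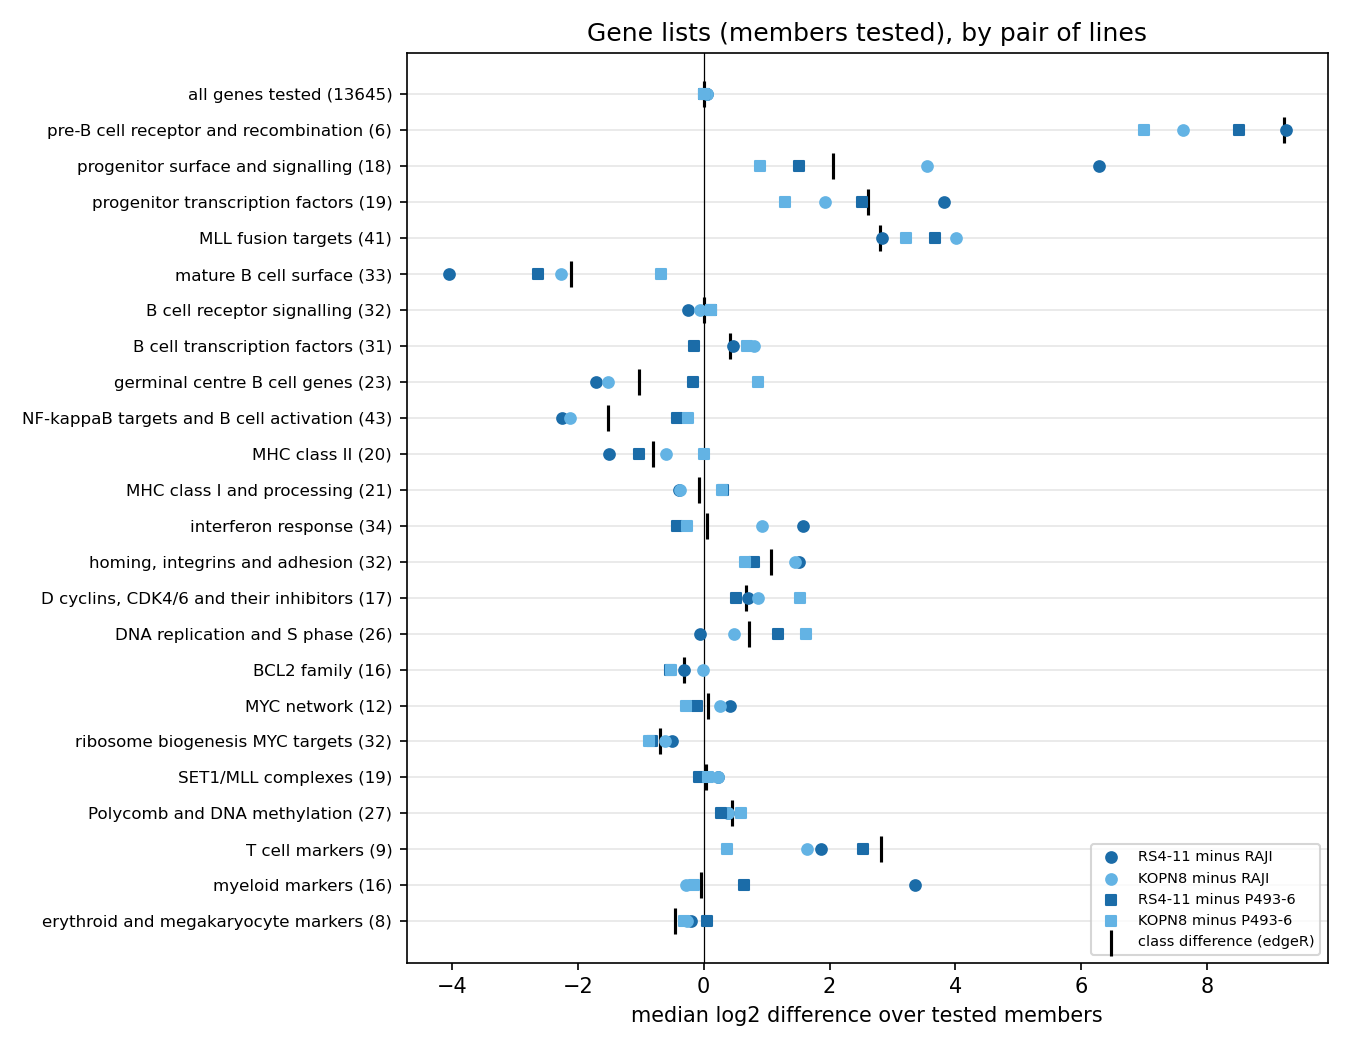
Median log2 difference over the tested members of 23 gene lists and of all genes, for each pair of a precursor line minus a mature line (blue and light blue; circles against RAJI, squares against P493-6) and for the class difference from edgeR (bar). The pre-B, progenitor and MLL fusion target lists lie right of 0 for all pairs and the mature B surface list left of 0, while the NF-kappaB list is at -2.25 and -2.12 against RAJI and at -0.42 and -0.26 against P493-6.

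Mature B cell surface genes were 15 of 33 tested members lower without overlap, against 15.3% of all genes, and 3 higher. The members lower at a 4-fold distance were MS4A1, FCER2, FCGR2B, GPR183 and SLAMF6. SLAMF6, a SLAM family receptor of lymphocytes, was measured at 0.396 to 0.627 CPM in RS4-11 and 1.18 to 2.15 CPM in KOPN8, against 59.5 to 73.8 CPM in RAJI and 74.3 to 74.9 CPM in P493-6, with a log2 difference of -6.05 ± 0.80 (SE). GPR183, the receptor that places activated B cells in follicles, was at 0.116 to 0.427 CPM in RS4-11 and 0.787 to 1.98 CPM in KOPN8, against 15.7 to 30.5 CPM in RAJI and 53 to 54 CPM in P493-6. CD27, a marker of memory B cells, was at 0.305 to 0.534 CPM in RS4-11 and 0.688 to 0.867 CPM in KOPN8, against 84 to 99.2 CPM in RAJI and 9.44 to 12.2 CPM in P493-6. RAJI had the higher level of CD27 and P493-6 that of GPR183. CD37, a tetraspanin, stood at 48.2 to 55.1 CPM in RS4-11 and 82.3 to 83.2 CPM in KOPN8, against 227 to 271 CPM in RAJI and 242 to 261 CPM in P493-6, a smaller gap with a log2 difference of -1.90 ± 0.35 (SE). The 3 members higher in the precursor lines were CD72, LY86 and LY9. CD72, an inhibitory coreceptor, was measured at 303 to 304 CPM in RS4-11 and 172 to 182 CPM in KOPN8, against 44.5 to 51.3 CPM in RAJI and 48.1 to 58.8 CPM in P493-6. CD40, which receives help from T cells, was at 15.3 to 19 CPM in RS4-11 and 27.5 to 28.1 CPM in KOPN8, against 143 to 243 CPM in RAJI and 21.6 to 22.2 CPM in P493-6. FCRL3, CXCR5, CCR7 and CR2 were high in RAJI and at most 4.39 CPM in P493-6. The list median was -2.11, and it was -5.79 without KOPN8, the precursor line that kept more of these genes.

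B cell receptor signalling genes did not separate the classes as a group: 6 of 32 were higher and 7 lower without overlap, shares near those of all genes, and the median was 0.00. CD79B, a signal chain of the receptor, was at 159 to 163 CPM in RS4-11 and 106 to 115 CPM in KOPN8, against 456 to 488 CPM in RAJI and 355 to 372 CPM in P493-6, with a log2 difference of -1.62 ± 0.34 (SE). CD79A, its partner chain, stood at 433 to 463 CPM in RS4-11 and 511 to 566 CPM in KOPN8, against 554 to 558 CPM in RAJI and 407 to 434 CPM in P493-6. CD79B thus separated the classes and CD79A did not. LAT2, an adaptor downstream of the receptor, was measured at 607 to 689 CPM in RS4-11 and 419 to 438 CPM in KOPN8, against 47.4 to 53.4 CPM in RAJI and 68.4 to 69.7 CPM in P493-6, with a log2 difference of 3.17 ± 0.38 (SE). FGR, a SRC family kinase known to be induced by Epstein-Barr virus, was at 0.0914 to 0.232 CPM in RS4-11 and 0.197 to 0.33 CPM in KOPN8, against 433 to 623 CPM in RAJI and 110.3 to 122 CPM in P493-6. PTPN6 (SHP-1), a phosphatase that restrains the receptor, stood at 468 to 696 CPM in the precursor libraries and 64.6 to 127 CPM in the mature ones.

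B cell transcription factors lay on both sides, with 11 of 31 tested members higher and 5 lower without overlap. Of all genes 17.5% were higher and 15.3% lower, so that the lower share was near that of all genes. Their median was 0.42 and was 0.15 without KOPN8. EBF1, which commits cells to the B lineage, was at 207 to 210 CPM in RS4-11 and 208 to 210.5 CPM in KOPN8, against 49.4 to 50.9 CPM in RAJI and 65 to 70.6 CPM in P493-6, with a log2 difference of 1.82 ± 0.29 (SE). PAX5 was at 192 to 372 CPM in the precursor lines and 107 to 159 CPM in the mature lines. Both commitment factors were higher in every precursor library. IRF8, a factor of germinal centre and myeloid cells, stood at 23.3 to 25.9 CPM in RS4-11 and 51 to 56.6 CPM in KOPN8, against 249 to 259.9 CPM in RAJI and 349 to 370 CPM in P493-6, with a log2 difference of -2.97 ± 0.53 (SE). PRDM1 (BLIMP1), the factor of plasma cells, was measured at 1.14 to 1.16 CPM in RS4-11 and 0.82 to 1.36 CPM in KOPN8, against 8.97 to 12.3 CPM in RAJI and 8.1 to 10.8 CPM in P493-6. IKZF3 (Aiolos) was at 0.163 to 0.609 CPM in RS4-11 and 9.49 to 13.1 CPM in KOPN8, against 77.2 to 78.3 CPM in RAJI and 58.9 to 65.7 CPM in P493-6. IRF8, POU2F2, IKZF3, POU2AF1 and PRDM1 were the 5 lower members. BCL6, the master factor of germinal centres, was at 137 to 139 CPM in RS4-11 and 53 to 64 CPM in KOPN8, against 212 to 245 CPM in RAJI and 0.276 to 0.324 CPM in P493-6, so that it was near 0 in P493-6 and not in the leukemia lines.

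Germinal centre genes were 6 of 23 tested members lower without overlap and 3 higher, against 15.3% and 17.5% of all genes. BMP7, a secreted growth factor, stood at 0.0464 to 0.0914 CPM in RS4-11 and 0.0328 to 0.124 CPM in KOPN8, against 56.6 to 62.5 CPM in RAJI and 261 to 273 CPM in P493-6. SEL1L3, a membrane protein, was measured at 35.2 to 46 CPM in RS4-11 and 47.7 to 53 CPM in KOPN8, against 268 to 289 CPM in RAJI and 448 to 465 CPM in P493-6, with a log2 difference of -3.02 ± 0.39 (SE). RGS13, a regulator of chemokine signalling in germinal centres, was at 2.53 to 2.62 CPM in RS4-11 and 0.131 to 0.536 CPM in KOPN8, against 277 to 295 CPM in RAJI and 0.036 to 0.0689 CPM in P493-6, and MYBL1 and S1PR2 likewise were high in RAJI and low in P493-6. The list median was -1.03 and turned to 0.37 without RAJI, so that the direction rested on that line.

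NF-kappaB targets and activation genes were 16 of 43 tested members lower without overlap and 1, STAT5A, higher, or 4 higher without RAJI 3R. Among all genes 15.3% were lower and 17.5% higher. Of the members, 14 had an unadjusted p under 0.05 and were lower, against 4.82% of all genes. BIRC3, an inhibitor of apoptosis, was at 2.38 to 2.81 CPM in RS4-11 and 0.165 to 0.262 CPM in KOPN8, against 782 to 930.2 CPM in RAJI and 37.9 to 40.2 CPM in P493-6. EBI3, a cytokine subunit first found as induced by Epstein-Barr virus, stood at 0 to 0.0305 CPM in RS4-11 and 0 to 0.0656 CPM in KOPN8, against 112 to 234 CPM in RAJI and 3.38 to 4.11 CPM in P493-6. TRAF1, an adaptor of TNF receptors, was measured at 10.4 to 10.7 CPM in RS4-11 and 5.67 to 9.82 CPM in KOPN8, against 214 to 384 CPM in RAJI and 16.1 to 21.1 CPM in P493-6. All 3 were far higher in RAJI than in P493-6. ICAM1, an adhesion receptor, was at 11 to 11.9 CPM in RS4-11 and 18.3 to 19.8 CPM in KOPN8, against 142 to 210 CPM in RAJI and 42.6 to 45.5 CPM in P493-6. MARCKS, a substrate of protein kinase C, was at 0.0232 to 0.0305 CPM in RS4-11 and 0 CPM in KOPN8, against 1.21 to 2.14 CPM in RAJI and 32.5 to 40.6 CPM in P493-6, and P493-6 was its high line. NFKB2, a subunit of the factor, stood at 70 to 79.2 CPM in RS4-11 and 44.6 to 49.9 CPM in KOPN8, against 254 to 372 CPM in RAJI and 38.4 to 38.8 CPM in P493-6, and P493-6 overlapped with the leukemia lines. The list median was -1.53, with -2.25 and -2.12 against RAJI and -0.42 and -0.26 against P493-6, and it was -0.16 without RAJI.

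**Figure D5:**
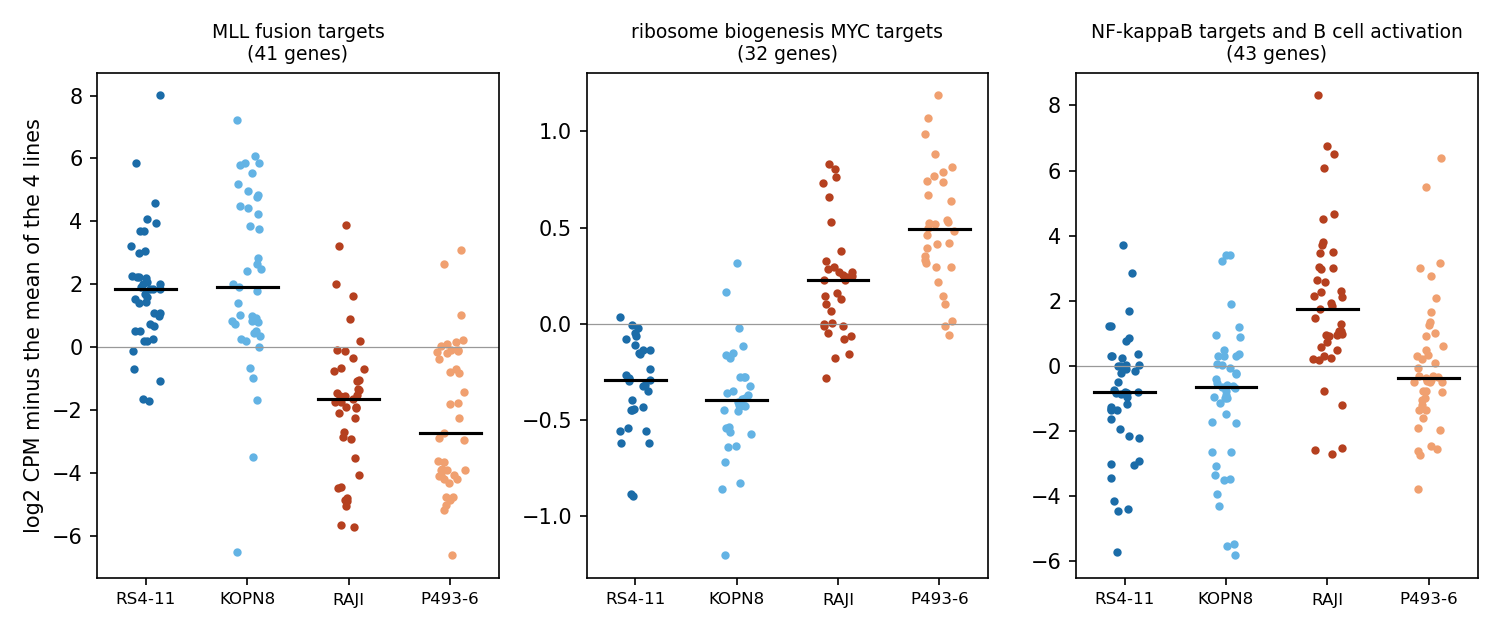
Log2 CPM of each tested member of 3 gene lists minus its mean over the 4 lines, by line, with a bar at the median; a point is a gene, averaged over the 2 libraries of the line. The medians of MLL fusion targets are 1.84 in RS4-11 and 1.91 in KOPN8, against -1.65 in RAJI and -2.71 in P493-6; ribosome biogenesis genes are at -0.29 and -0.40 against 0.23 and 0.49; NF-kappaB genes stand out in RAJI alone, at 1.74.

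MHC class II genes were 7 of 20 tested members lower without overlap and 0 higher, against 15.3% and 17.5% of all genes. Their median was -0.80, and it was 0.01 between KOPN8 and P493-6. Without RAJI it was -0.34, without RS4-11 -0.51 and without KOPN8 -1.33. HLA-DRA, the alpha chain of the DR molecule, was measured at 562.2 to 569 CPM in RS4-11 and 812 to 828 CPM in KOPN8, against 1346 to 1889 CPM in RAJI and 816 to 886 CPM in P493-6. CTSS, a protease that prepares class II molecules for loading, was at 60.9 to 62.5 CPM in RS4-11 and 95.7 to 96.9 CPM in KOPN8, against 120.1 to 135 CPM in RAJI and 207 to 222 CPM in P493-6. IFI30, a lysosomal reductase of antigen processing, was at 55 to 56 CPM in RS4-11 and 110.1 to 112 CPM in KOPN8, against 639 to 977 CPM in RAJI and 114 to 116 CPM in P493-6. HLA-DRA overlapped between the classes, whereas CTSS and IFI30 did not. HLA-DQB2, a minor class II chain, stood at 0 to 0.0232 CPM in RS4-11 and 0 CPM in KOPN8, against 2.03 to 2.2 CPM in RAJI and 0.072 to 0.31 CPM in P493-6. HLA genes have near-identical copies, and their counts are uncertain for that reason. Of 21 MHC class I genes, 2 were higher and 2 lower without overlap (17.5% and 15.3% of all genes). Their median was -0.07; without RAJI 3R it was 0.01 with 4 higher, and without RAJI 0.35. HLA-E, a class I molecule read by natural killer cells, was measured at 489 to 524 CPM in RS4-11 and 527 to 564 CPM in KOPN8, against 245 to 365 CPM in RAJI and 258 to 261 CPM in P493-6. TAP2, which pumps peptides to class I molecules, was at 127 to 129 CPM in RS4-11 and 78.9 to 91.8 CPM in KOPN8, against 353 to 420.2 CPM in RAJI and 184 to 197 CPM in P493-6.

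Interferon response genes differed mainly between RAJI and P493-6, with 8 of 34 tested members higher and 4 lower without overlap, against 17.5% and 15.3% of all genes. The list median was 0.05, or 0.36 without RAJI 3R. IFITM2, a membrane protein that blocks virus entry, was at 494 to 500.4 CPM in RS4-11 and 312 to 346 CPM in KOPN8, against 4.75 to 5.5 CPM in RAJI and 12.6 to 13.3 CPM in P493-6, with a log2 difference of 5.52 ± 0.67 (SE). IFI44L, an interferon-induced gene, stood at 0.122 to 0.139 CPM in RS4-11 and 0.0413 to 0.164 CPM in KOPN8, against 1.2 to 23.6 CPM in RAJI and 242 to 257 CPM in P493-6. MX1, an antiviral GTPase, was measured at 4.11 to 5.51 CPM in RS4-11 and 13.2 to 14.8 CPM in KOPN8, against 0.0522 to 0.105 CPM in RAJI and 133 to 144 CPM in P493-6. MX1 and IFI44L were high in P493-6, while MX1 was near 0 in RAJI. The medians were 1.58 and 0.93 for the precursor lines against RAJI and -0.43 and -0.27 against P493-6.

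Homing and adhesion genes were 10 of 32 tested members higher without overlap and none lower, against 17.5% and 15.3% of all genes. Their median was 1.07, and it was 0.07 without KOPN8. CXCR4, the receptor that holds B precursors in the marrow, was at 157 to 159.9 CPM in RS4-11 and 424 to 435 CPM in KOPN8, against 129 to 139.6 CPM in RAJI and 51.7 to 53.4 CPM in P493-6. ITGA4, the alpha chain of the VLA-4 integrin, was at 368 to 374 CPM in RS4-11 and 602 to 622 CPM in KOPN8, against 113 to 125 CPM in RAJI and 198 to 201 CPM in P493-6, with a log2 difference of 1.62 ± 0.44 (SE). CXCR4 in RAJI was close to its level in RS4-11. S100A10, the partner of annexin A2, stood at 190.1 to 225 CPM in RS4-11 and 103 to 107 CPM in KOPN8, against 15.2 to 25.4 CPM in RAJI and 23 to 23.4 CPM in P493-6. LGALS1, the lectin galectin-1, was measured at 257 to 263 CPM in RS4-11 and 379 to 386 CPM in KOPN8, against 1.2 to 3.77 CPM in RAJI and 62.9 to 67.8 CPM in P493-6. All 4 were higher in every precursor library.

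Among D cyclins, their kinases and the inhibitors of these, 5 of 17 tested members were higher without overlap and none lower, against 17.5% and 15.3% of all genes. Their median was 0.67, and it was 0.41 without KOPN8 and 1.69 without RAJI. CCND3, cyclin D3, was at 458 to 522 CPM in RS4-11 and 716 to 792 CPM in KOPN8, against 189 to 223 CPM in RAJI and 35.2 to 38.1 CPM in P493-6. CCND2, cyclin D2, was at 0.274 to 0.65 CPM in RS4-11 and 0.0413 to 0.131 CPM in KOPN8, against 0.209 to 0.261 CPM in RAJI and 520.3 to 522 CPM in P493-6, so that P493-6 alone had it at a high level. CDKN1B (p27), an inhibitor of cyclin-dependent kinases, stood at 159 to 166 CPM in RS4-11 and 260.1 to 262 CPM in KOPN8, against 30.1 to 38.8 CPM in RAJI and 5.55 to 5.73 CPM in P493-6, with a log2 difference of 3.39 ± 1.03 (SE). CDKN2D, an inhibitor of CDK4 and CDK6, was measured at 41.4 to 43.5 CPM in RS4-11 and 121 to 123 CPM in KOPN8, against 10.5 to 15 CPM in RAJI and 14.4 to 20.3 CPM in P493-6. CDKN1B and CDKN2D were both highest in KOPN8. CDKN2A was at 0 to 0.0232 CPM in RS4-11 and 112 to 134 CPM in KOPN8, against 90.5 to 92.8 CPM in RAJI and 8.54 to 9.51 CPM in P493-6, so that it was at or near 0 in RS4-11 alone. DNA replication genes were all above 0 in the edgeR fit, 26 of 26 against 6870 of 13645 genes, with a median of 0.72 that was 0.19 without P493-6, 0.44 without KOPN8 and 1.44 without RAJI. RFC2 and GINS2 had the lowest p of the list. Of the members, 8 were higher without overlap and 0 lower, against 17.5% and 15.3% of all genes. The median between RS4-11 and RAJI was -0.06 against 1.19 and 1.62 for the pairs with P493-6. RFC2, a subunit of the clamp loader, was at 142 to 149 CPM in RS4-11 and 119.6 to 139 CPM in KOPN8, against 42.1 to 53 CPM in RAJI and 43.8 to 47.5 CPM in P493-6, with a log2 difference of 1.56 ± 0.27 (SE). GINS2, a subunit of the replicative helicase, stood at 90.1 to 93.4 CPM in RS4-11 and 138 to 160.3 CPM in KOPN8, against 60.2 to 71.3 CPM in RAJI and 42.9 to 47.4 CPM in P493-6. RRM2, a ribonucleotide reductase subunit, was measured at 183 to 196 CPM in RS4-11 and 500.5 to 528 CPM in KOPN8, against 272 to 305 CPM in RAJI and 21.4 to 25 CPM in P493-6, and P493-6 was the low line.

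BCL2 family genes had 1 of 16 tested members higher, or 3 without RAJI 3R, and 4 lower without overlap. The shares of all genes were 17.5% and 15.3%. Their median was -0.32, and it was -0.03 without P493-6 and -0.56 without RAJI. BID, a killer protein that links death receptors to mitochondria, was at 171 CPM in RS4-11 and 124 to 127 CPM in KOPN8, against 45.1 to 49.4 CPM in RAJI and 49.9 to 54.4 CPM in P493-6, with a log2 difference of 1.58 ± 0.31 (SE). BCL2L11 (BIM), another killer protein, was at 36.8 to 40.3 CPM in RS4-11 and 31.5 to 35.8 CPM in KOPN8, against 201 to 212 CPM in RAJI and 71 to 76.2 CPM in P493-6. BCL2A1, a protector of activated B cells, stood at 0.232 to 0.823 CPM in RS4-11 and 0.124 to 0.197 CPM in KOPN8, against 37.2 to 76.8 CPM in RAJI and 4.17 to 5.01 CPM in P493-6, so that RAJI alone had it at a high level.

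MYC was highest in P493-6. MYC was measured at 327 to 332 CPM in RS4-11 and 286 to 319 CPM in KOPN8, against 431 to 462 CPM in RAJI and 4660 to 5338 CPM in P493-6, and the log2 difference of the class was -3.10 ± 1.25 (SE). MXI1, an antagonist of MYC, was at 17.6 to 18.7 CPM in RS4-11 and 13.1 to 14 CPM in KOPN8, against 44.3 to 80.5 CPM in RAJI and 110.1 to 118 CPM in P493-6, and MXD3, a related repressor, was at 28.1 to 28.6 CPM in RS4-11 and 45.3 to 46.5 CPM in KOPN8, against 12.2 to 13.9 CPM in RAJI and 5.65 to 7.13 CPM in P493-6. Ribosome biogenesis genes known as MYC targets were the most even of the lower lists: 21 of 32 were lower without overlap, 28 without RAJI 3R, and 0 were higher, against 15.3% and 17.5% of all genes. Their median was -0.70, with -0.87 to -0.50 for the 4 pairs of lines. In edgeR, 9 were lower with an unadjusted p under 0.05, against 4.82% of all genes. CAD, which starts pyrimidine synthesis, stood at 152 to 156 CPM in RS4-11 and 148 to 174 CPM in KOPN8, against 347 to 404 CPM in RAJI and 336 to 348 CPM in P493-6, with a log2 difference of -1.18 ± 0.25 (SE). UTP20, a factor of small subunit assembly, was measured at 39.5 to 43.1 CPM in RS4-11 and 57 to 57.1 CPM in KOPN8, against 95.1 to 129 CPM in RAJI and 128 to 138 CPM in P493-6. The mature lines were at similar levels of CAD, while UTP20 was lowest in RAJI 3R among the mature libraries. Over the list, the median size of the log2 difference between RAJI and P493-6 was 0.39. FBL, the methyltransferase of ribosomal RNA, was at 195 to 200 CPM in RS4-11 and 179.7 to 211 CPM in KOPN8, against 350.3 to 384 CPM in RAJI and 600.1 to 606 CPM in P493-6. NCL (nucleolin), in contrast, was at 1918 to 2015 CPM in RS4-11 and 1740 to 1962 CPM in KOPN8, against 1845 to 2273 CPM in RAJI and 2367 to 2401 CPM in P493-6, and it overlapped. These differences are small against those of the stage markers.

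SET1/MLL complex genes did not separate the classes. DPY30, the subunit that the peptide Y518R binds, stood at 34.9 to 38.3 CPM in RS4-11 and 43.9 to 44 CPM in KOPN8, against 47.5 to 47.9 CPM in RAJI and 30.6 to 30.8 CPM in P493-6, with a log2 difference of 0.03 ± 0.41 (SE). ASH2L, the subunit that DPY30 attaches to, was measured at 48.2 to 55.5 CPM in RS4-11 and 96.7 to 103 CPM in KOPN8, against 38.8 to 50.3 CPM in RAJI and 31.6 to 33.5 CPM in P493-6. HCFC1, a chromatin scaffold, was at 291 to 294 CPM in RS4-11 and 274 to 297 CPM in KOPN8, against 203 to 231 CPM in RAJI and 115 to 125 CPM in P493-6. Of 19 members 4 were higher and 3 lower without overlap, shares near those of all genes. Polycomb and DNA methylation genes were 10 of 27 higher and 2 lower without overlap, against 17.5% and 15.3% of all genes. Their median was 0.45. UHRF1, which guides maintenance DNA methylation, was at 354 to 410.1 CPM in RS4-11 and 444 to 531 CPM in KOPN8, against 56.8 to 71 CPM in RAJI and 40.7 to 41.9 CPM in P493-6, with a log2 difference of 3.06 ± 0.38 (SE). JARID2, which recruits Polycomb complex PRC2, stood at 202 to 211 CPM in RS4-11 and 172 to 196 CPM in KOPN8, against 14.2 to 19.7 CPM in RAJI and 44.5 to 45.3 CPM in P493-6. DNMT3A, a de novo methyltransferase, was measured at 89.6 to 98.4 CPM in RS4-11 and 82.9 to 87.5 CPM in KOPN8, against 1.36 to 2.67 CPM in RAJI and 61.4 to 63.2 CPM in P493-6, and RAJI was the low line.

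Markers of other blood cells were summed in each library. Of 18 T cell markers, 9 were under 1 CPM in all 8 libraries, CD3D among them, and the summed level was 244.1 to 271.3 CPM in the precursor libraries against 20.2 to 36.0 CPM in the mature ones. ZAP70, a T cell kinase, was at 168 to 175 CPM in RS4-11 and 61.1 to 73.2 CPM in KOPN8, against 0.0522 to 0.367 CPM in RAJI and 0.144 to 0.448 CPM in P493-6, with a log2 difference of 8.86 ± 0.80 (SE). LCK, the kinase that acts before it, was at 39.2 to 39.3 CPM in RS4-11 and 109 to 121 CPM in KOPN8, against 10.7 to 10.8 CPM in RAJI and 5.37 to 8.51 CPM in P493-6. Without these 2 kinases the sums were 47.8 to 76.8 CPM and 9.49 to 24.8 CPM, made up mainly of GATA3 in RS4-11 and of CD7 and TCF7 in KOPN8. The median of the 9 tested T cell markers was 2.82, and it was -0.68 without RS4-11 and -0.35 without KOPN8. GATA3, a factor of T cells, stood at 34.5 to 34.7 CPM in RS4-11 and 0 to 0.0656 CPM in KOPN8, against 0 CPM in RAJI and 0.138 to 0.396 CPM in P493-6. Of 24 myeloid markers, 9 were under 1 CPM in all 8 libraries, MPO among them, and 2, CSF2RA and FCN1, had no count. Their sum was 57.2 to 165.3 CPM in the precursor libraries and 26.3 to 193.3 CPM in the mature ones, so that the classes overlapped, and the median of 16 tested members was -0.05. CD33, a lectin of myeloid cells, was measured at 3.17 to 3.58 CPM in RS4-11 and 15.9 to 16.3 CPM in KOPN8, against 0.209 to 0.835 CPM in RAJI and 0.172 to 0.324 CPM in P493-6. Erythroid and megakaryocyte markers without TFRC summed to 6.73 to 59.8 CPM and 7.78 to 12.5 CPM, with HBB, PF4 and PPBP at no count. ITGA2B, an integrin chain of platelets, was at 23 to 24.1 CPM in RS4-11 and 0.0413 to 0.0656 CPM in KOPN8, against 0 to 0.104 CPM in RAJI and 0.138 to 0.324 CPM in P493-6. GP9, a platelet glycoprotein, had 13.6 to 14.2 CPM in RS4-11 and 0.131 to 0.867 CPM in KOPN8 and no count in the mature lines, at least 54.7-fold higher over class means with each mature library set to 3 counts. CEBPE, a factor of granulocytes, was at 4.84 to 5.87 CPM in RS4-11 and 0.124 to 1.44 CPM in KOPN8, against 0 CPM in RAJI and 0 to 0.144 CPM in P493-6. ITGA2B, GP9 and CEBPE were thus mainly transcripts of RS4-11. CD3D was at 0.0328 to 0.152 CPM in the precursor libraries. In JURKAT, the T cell line, CD3D was at 372 to 388.5 CPM and ZAP70 at 383 to 409 CPM. Each library is labelled as 1 cell line, and the part of other cell types in the class difference was not tested.

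The dependence of the class difference on the peptide was tested as well. The interaction of class and peptide, with the line as block, passed 1 of 14367 genes in edgeR (0.00696%), against 34 in DESeq2 and 409 in edgeR without P493-6. The gene passed in edgeR over all lines was RGS1, a regulator of chemokine receptor signalling, with a log2 interaction of 2.88 and an adjusted p of 0.00561. In Y518R and 3R libraries, RGS1 was at 7.40 and 3.76 CPM in RS4-11, 2.23 and 1.03 CPM in KOPN8, 29.3 and 105.5 CPM in RAJI, and 0 and 0.036 CPM in P493-6. It was higher with Y518R in both leukemia lines and lower in RAJI, while P493-6 had 1 count in all. Without RAJI the log2 interaction of RGS1 was 4.34 with an adjusted p of 1, and RAJI 3R is the library that stood apart.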

How the data were processed

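RNA was measured in 16 libraries of 8 lines, of which 8 libraries were compared. The authors deposited 1 table per library of whole-number counts of reads per gene symbol; per the submitters' processing notes the tools were CASAVA 1.8.4, TopHat2 2.1.1, HTSeq 0.6.1, DESeq and DESeq2 3.0, with GRCh38 and hg19 as builds. The sources used here give neither the build of each step nor whether counting used strand, so overlapping genes are uncertain. Of 23230 gene symbols, 1664 RNA genes without poly(A) tails were left out, and 5 entries that name no gene were kept out of library sizes. The share of reads in no gene was 19.0% to 44.7% in the 8 libraries, and gene counts, with these RNA genes included, were 19354300 to 43003124.

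Counts of the 2 libraries of a line were summed, since both come from 1 culture line, and the classes were compared over 2 lines each with edgeR 4.0.16 in R 4.3.3 (quasi-likelihood test, TMM, filterByExpr with a minimum count of 10, Benjamini-Hochberg adjustment, threshold 0.05). P-values of this class fit measure the spread between lines of a class. The interaction of class and peptide was fitted over the 8 libraries with the line as block. Its p-values rest on how the peptide difference varies between lines of a class. The alternatives were DESeq2 1.42.0 size factors and test, limma 3.58.1 (voom), no filter, libraries as samples, 1 peptide, all 8 lines, each line or RAJI 3R left out, and other sets of RNA genes. The scripts were tested on simulated data.

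Named genes were IGLL1, VPREB1, MS4A1 and DPY30, the 10 genes with the lowest p in each direction (at 10 CPM or more in the higher class, without overlap), since none passed, and the 2 members of each of 23 gene lists with the lowest p. Before those 10 were taken, XIST, Y-linked genes and immunoglobulin and T cell receptor segments were set aside. So were pseudogenes and symbols of LOC, LINC, orf, antisense or similar type. The members and lists were chosen with earlier results of these data known. The line pairs its 2 peptide libraries because both carry the same cell line label. A few genes are not reported here, although the counts over lists and over all genes include them.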

Additional observations from a re-analysis of the deposited data

Results flagged for a closer look

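In groups of 4 libraries, 1 library lay far from the other 3 in 4 of 131 groups examined. Chance would flag about 1 in 20 groups of 4 independent values. Each group here holds 2 lines with 2 libraries each, so that rate does not apply to them. The RAJI 3R library had 44.7% of its reads in no gene, against 23.4% to 26.9% in the other mature B libraries, and its RNA genes without poly(A) tails summed to 1237 CPM, against 399 to 486 CPM. SLAMF6 stood at 59.5 CPM in RAJI Y518R, against 73.8 to 74.9 CPM in the other mature B libraries. HLA-E stood at 365 CPM in RAJI 3R, against 245 to 261 CPM in the others. The response to the peptides differed between the classes for RGS1, with a log2 interaction of 2.88 and an adjusted p of 0.00561 in edgeR, and its value rests on RAJI, whose 3R library is the one that stood apart. The part of that library's quality in these values was not tested.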

How the results depend on the processing

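The count of class calls was 0 in edgeR with RLE scaling, in limma-voom on summed counts, with 1 peptide only, without RAJI 3R, with RNA genes without poly(A) tails kept and with histone genes left out. Without a filter it was 7 (6 higher, IGLL1 among them, and 1 lower, CYBB), and with all 8 lines in the fit 2, both higher. DESeq2 called 1104 genes (617 higher, 487 lower). Taking the 8 libraries as separate samples gave 2071 (1052 higher, 1019 lower), with p-values that are too small because both libraries of a line share their source. With the line as a random block, limma-voom called 17 genes (12 higher, 5 lower), MYB, SOX4, POU2F2 and IRF8 among them. Leaving out each line in turn gave 0 to 0 class calls.

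The interaction of class and peptide gave 5 calls without a filter (5 higher), 34 in DESeq2 (32 higher, 2 lower) and 0 in limma-voom, and 0 to 409 with a line left out (0 to 352 higher, 0 to 57 lower), the highest without P493-6. The adjusted p of RGS1 was 1.59e-20 to 1 over the alternatives that gave one, and DESeq2 gave none. Genes without overlap numbered 3854 to 4313 higher and 3356 to 4306 lower with a line left out, and genes at least 4-fold apart 312 to 523 higher and 224 to 361 lower, because fewer libraries have to be separated. Of 62 genes that the naming rule gave, the direction turned for ITGA2B, at -1.33 without RS4-11 within a range up to 7.75 with a line left out, and for DPY30, at -0.10 without KOPN8 and -0.26 without P493-6 within a range up to 0.39. No paired analysis was possible because the classes compared share no line, so no replicate number pairs a precursor with a mature library. Depth limits genes near 0, where a count of 0 allows 3 counts, and 2 lines a class limit every p.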
